A study of Rattus norvegicus with 6 samples.

Results

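The miR-199a and miR-214 cluster is described here through its 4 mature arms, rno-miR-199a-3p, rno-miR-199a-5p, rno-miR-214-3p and rno-miR-214-5p, chosen by name among the 1071 miRNA rows of the deposited tables. Small RNA was sequenced from untreated, wild-type fibroblasts of rat sciatic nerve, with 3 libraries made from the vesicles that the cells release (EV) and 3 from the RNA of the cells themselves (Intracellular), to which the vesicles are compared. The labels put all 6 libraries in batch 1 and do not say whether replicates came from separate cultures or animals. A p-value here therefore reflects only how far these libraries differ, which may be technical. The vesicles are a preparation called exosomal by the submitters, and how they were isolated is not given in the sources used here.

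Both miRNAs are made from one long noncoding transcript, Dnm3os, which runs on the strand opposite to the dynamin 3 gene Dnm3. A microRNA precursor folds into a hairpin from which either arm, 5p or 3p, can be loaded into an Argonaute protein, and bases 2 to 8 of the loaded arm, the seed, select the messenger RNAs it represses. The cluster is typical of mesenchymal cells and is studied in fibrosis. miR-199a-5p represses caveolin-1 and miR-199a-3p represses mTOR, each reported in other systems.

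The RefSeq table (build GRCr8) names the genes Mir199a2, Mir214 and Mir3120 on chromosome 13, next to each other and all inside the span of Dnm3. Mir199a2 and Mir214 lie on the plus strand and Mir3120 on the minus strand, where it overlaps Mir214. All 4 members matched that table, and the RefSeq sequences are the same as those listed in the deposited tables. They are shown because the results turn on which stretch of the hairpins each row counts, with the seed in capitals:
miR-199a-3p: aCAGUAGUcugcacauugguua
miR-199a-5p: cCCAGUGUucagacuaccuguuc
miR-214-3p: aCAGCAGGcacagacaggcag
miR-214-5p: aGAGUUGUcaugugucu
miR-3120: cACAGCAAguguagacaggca
The 5 seeds differ from one another, and no other rat miRNA in the RefSeq table shares one of them. Of the 519 predicted rows 412 come without a sequence and could not be compared. Among the rows with one, 1 shares a seed: the predicted novel98_mature begins with the same 17 bases as miR-214-3p and had 0 counts in EV and 8 in Intracellular libraries. Other mammals make miR-199a arms from further loci. The RefSeq table names 1 rat locus, and counts of a mature sequence do not tell loci apart.

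The row named miR-214-5p is 17 bases long, shorter than the other members (21 to 23 bases). Within the Mir214 hairpin of 108 bases it covers bases 12 to 28, and miR-214-3p covers bases 69 to 89, both in capitals here:
Mir214 hairpin: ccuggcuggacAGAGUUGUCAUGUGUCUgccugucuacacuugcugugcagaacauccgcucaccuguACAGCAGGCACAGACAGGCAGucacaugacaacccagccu
In the fold predicted by RNAfold 2.7.2 (-67.5 kcal/mol), 18 of the 21 bases of miR-214-3p were paired, with partners between bases 27 and 47, and 2 of these partners lay in the miR-214-5p row. The stretch opposite miR-214-3p is thus mostly outside the row named miR-214-5p. It is instead nearly the reverse complement of miR-3120, which covers bases 28 to 48 and holds 17 of the 18 partners:
reverse complement of miR-3120: ugccugucuacacuugcugug
Whether the authors' counting used strand is not given in the sources used here, so reads of miR-3120 and reads of the Mir214 strand opposite miR-214-3p cannot be told apart in the miR-3120 row. For this reason miR-3120 is given beside the members. It was added after its values were seen.

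miR-199a-3p was among the most abundant miRNAs of both the vesicles and the cells, and its share of the counts was nearly the same in both. It stood at 69227, 64133 and 72112 CPM (counts per 1000000 counts of that library) in EV replicates 1, 2 and 3 and at 70932, 71729 and 74806 CPM in Intracellular replicates 1, 2 and 3. The groups overlapped, and miR-199a-3p ranked 4 in every library except Intracellular replicate 1, where it ranked 5. Their means were 68490 ± 4040 and 72489 ± 2046 CPM (SD, n = 3).

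miR-199a-5p, the less abundant arm of that hairpin, was at 19369, 18498 and 22257 CPM in the EV libraries. In the Intracellular libraries it was at 20986, 28916 and 29229 CPM. The first Intracellular library lay within the EV range and the other two above it. It ranked 11 to 13 in EV and 7 to 11 in Intracellular libraries.

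miR-214-3p was at 1354, 1137 and 801 CPM in the 3 vesicle libraries and at 144.6, 290.1 and 311 CPM in the 3 from cells. All EV libraries were above all Intracellular ones, as for 41.8% of the tested rows (3.66% had all EV libraries below), Intracellular replicate 1 being the lowest of the 6. The means, 1098 ± 279 and 248.6 ± 90.6 CPM (SD, n = 3), differed 4.42-fold. It ranked 67 to 78 in the EV and 105 to 121 in the Intracellular libraries. The EV values rest on 110, 120 and 74 counts, and their exact (Clopper-Pearson) 95% intervals of 1113 to 1632, 942 to 1359 and 629 to 1006 CPM all lie above the highest Intracellular value. These intervals treat reads as independent and leave out the spread between libraries. PCR reads without molecular identifiers are not independent molecules, so the intervals may be too narrow even for counting error.

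miR-214-5p was hardly detected. It had 0, 0 and 1 counts in EV and 4, 10 and 29 in Intracellular libraries, or 2.18 to 3.27 CPM in the latter. A count of 0 allows up to 36.9 CPM in EV replicate 1 and 28.4 CPM in EV replicate 2 (3 counts), so that the Intracellular level was not detectable at the depth of the EV libraries. For the share of miR-214-5p in both miR-214 arms, the counts of the 3 libraries of each group were pooled. The share was 0.328% in EV (1 of 305 counts, exact 95% interval 0.00830% to 1.81%) and 1.07% in Intracellular libraries (43 of 4025, 0.774% to 1.44%). The intervals overlap.

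**Figure D1:**
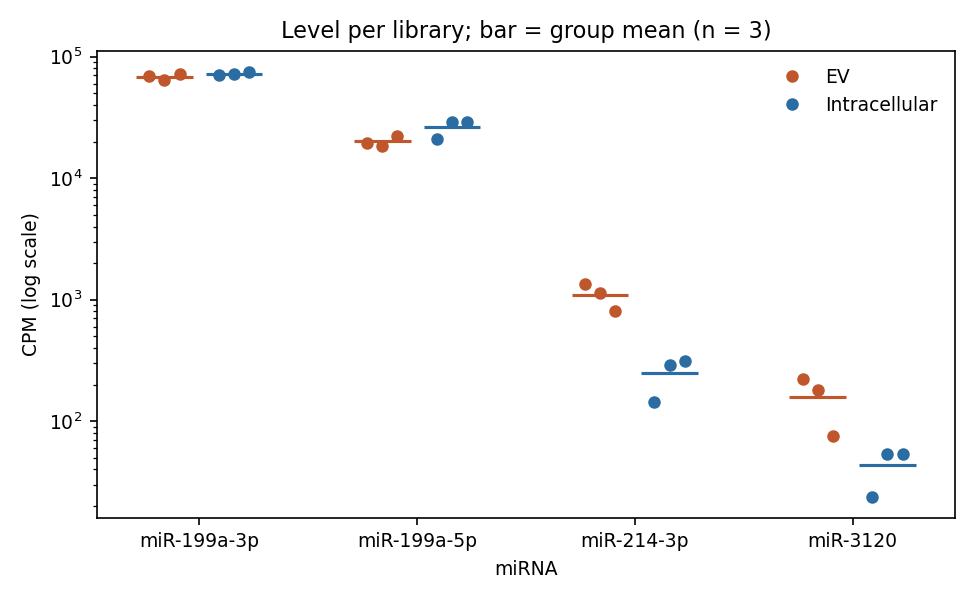
Level of miR-199a-3p, miR-199a-5p, miR-214-3p and miR-3120 in each library in CPM on a log axis, EV in orange and Intracellular in blue, with the mean of each group of 3 as a bar. The groups overlap for both arms of miR-199a, while all EV points lie above all Intracellular points for miR-214-3p (801 CPM and more against 311 CPM and less) and for miR-3120.

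The 4 members together took 8.96% ± 0.571 of all vesicle counts and 9.91% ± 0.634 of all cell counts (SD, n = 3; 2-sided exact permutation p = 0.2, the smallest possible being 0.1). The value depended on the denominator: with the 10 most abundant other miRNAs left out, which took 59.3% to 61.0% of EV and 66.3% to 74.6% of Intracellular counts, the cluster took 22.4% ± 1.92 in vesicles and 32.6% ± 3.12 in cells (SD, n = 3; exact permutation p = 0.1). Within the cluster, miR-214 made up 1.51%, 1.36% and 0.853% in the EV libraries and 0.159%, 0.290% and 0.301% in the Intracellular ones.

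Depth and scaling bear on the tests of these levels. Totals were 81211 to 105578 counts in EV and 1839047 to 8859302 in Intracellular libraries. Intracellular replicate 1 stood apart, with a TMM scaling factor of 0.557 against 0.935 to 0.963 in the other Intracellular and 1.17 to 1.35 in the EV libraries. TMM sets the typical miRNA to no change, while scaling to total counts keeps shares, and between the 2 the median log2 fold change over the 328 rows tested moved by 0.61. Epithelial markers (5 miRNAs) summed to at most 2.14 CPM in Intracellular libraries. They had 0 EV counts, but 1 count was 9.47 to 12.3 CPM there, so such a level was not detectable at that depth. The 11 fibroblast markers, none of them a member, summed to 423161 to 450548 CPM in vesicles and 446480 to 453812 CPM in cells. The liver miRNA miR-122-5p was at 11158 to 13723 CPM in vesicles and 117.7 to 344.7 CPM in cells. The 3 erythroid markers summed to 151.5 to 221.6 CPM in vesicles and 2.26 to 5.98 CPM in cells, with miR-144-3p at 0 in EV, and the 4 leukocyte markers to at most 37.1 CPM in any library. The part of RNA from such sources in the results below was not tested.

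Of the 3 members that passed the filter on low counts, 1 was higher and 2 were lower in EV by edgeR's quasi-likelihood test with TMM scaling, at a Benjamini-Hochberg adjusted p under 0.05. Over all rows tested, 25.6% were called higher and 17.1% lower, and over the 290 known miRNAs among them 20.7% and 19.3%. miR-214-3p rose by 1.53 on the log2 scale (SE 0.212, 95% interval 1.09 to 1.98, edgeR adjusted p = 8.52e-06). By this TMM value it was at rank 36 from the top among the 290 known miRNAs tested. miR-214-3p kept its call in all 24 alternatives run, between 1.29 and 2.19.

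miR-199a-5p fell by 1.04 (SE 0.251, 95% interval -1.57 to -0.51, edgeR adjusted p = 0.003). miR-199a-3p fell by 0.78 (SE 0.303, 95% interval -1.42 to -0.15, edgeR adjusted p = 0.0454). Neither fall held when shares were compared: with total-count scaling, under which 32.6% of rows were called higher and 0.915% lower, miR-199a-5p had a log2 fold change of -0.39 (edgeR adjusted p = 0.0613) and miR-199a-3p of -0.079 (edgeR adjusted p = 0.69). miR-214-3p stood at 2.14 with that scaling (edgeR adjusted p = 1.3e-05). The miR-199a-3p call was also lost without EV replicate 1, 2 or 3 (adjusted p = 0.139, 0.147 and 0.0594) and without Intracellular replicate 2 or 3 (0.0686 and 0.125). With the tested rows kept, the call held without Intracellular replicate 2 (-0.92, edgeR adjusted p = 0.0273). Without Intracellular replicate 1 the value was -0.42 with an adjusted p of 0.000593. With a block for the replicate number the value was -0.74 (adjusted p = 0.149).

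**Figure D2:**
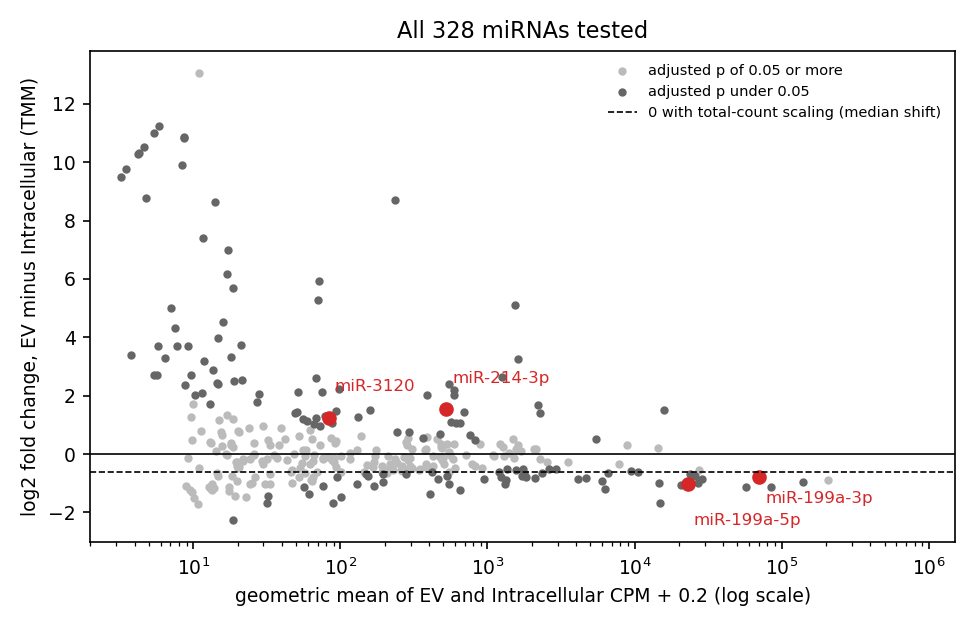
Log2 fold change of the 328 tested miRNAs, EV minus Intracellular with TMM scaling, against the geometric mean of the 2 group levels (CPM + 0.2, log axis), with dark points for adjusted p under 0.05 and the dashed line at the median shift of 0.61 below 0 that total-count scaling gives. miR-214-3p (1.53) and miR-3120 (1.25) lie above 0, and miR-199a-3p (-0.78) and miR-199a-5p (-1.04) lie below 0. Of these, miR-199a-3p is close to the dashed line and miR-199a-5p is farther below it.

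The ratio of miR-199a to miR-214 within a library needs no scaling between libraries, and it was 5.05-fold higher in the cells than in the vesicles. The counts of both miR-199a arms were 65.4, 72.7 and 116.2 times those of both miR-214 arms in EV replicates 1, 2 and 3. In Intracellular replicates 1, 2 and 3 they were 626.1, 343.4 and 331.1 times as high. The groups did not overlap, and the library that stood apart in scaling, Intracellular replicate 1, had the highest ratio. On the log2 scale the means were 6.36 ± 0.44 and 8.69 ± 0.52 (SD, n = 3), a difference of -2.34 (2-sided exact permutation p = 0.1, the smallest that 3 against 3 libraries allow, and 0.117 adjusted over the 7 ratios computed). It was -2.04 without Intracellular replicate 1, -2.27 with the 3p arms alone and -2.29 with miR-3120 added to miR-214. The ratio of the 5p arms alone could not be given, since miR-214-5p was at 0 in 2 EV libraries.

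**Figure D3:**
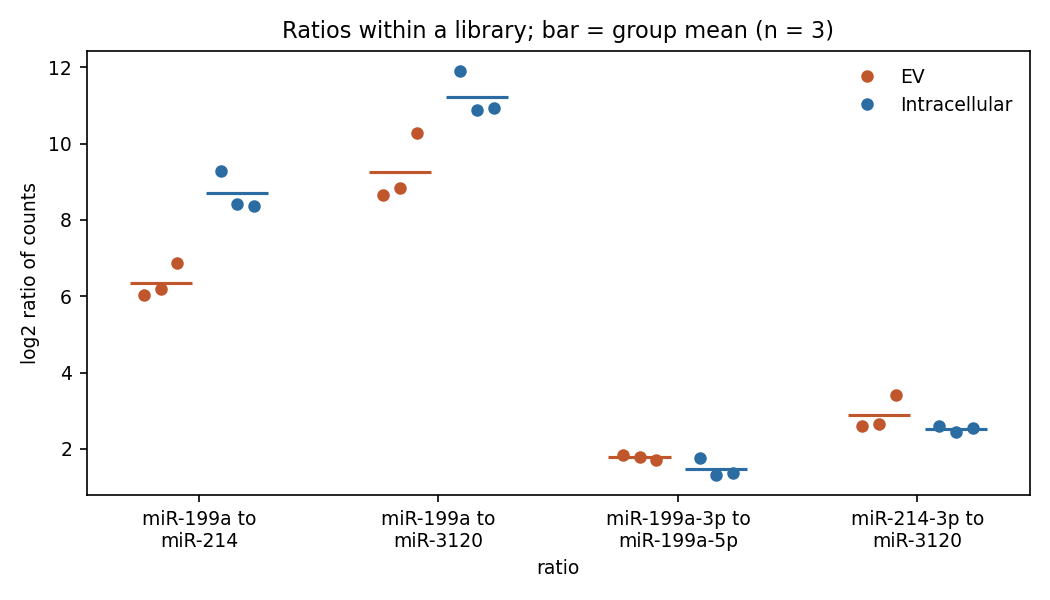
Log2 ratio of counts within each library for 4 pairs, EV in orange and Intracellular in blue, with the mean of each group of 3 as a bar. Both ratios of miR-199a (to miR-214 and to miR-3120) are lower in all EV libraries, with mean differences of -2.34 and -1.98, while the ratio of the miR-199a arms differs by 0.30 and that of miR-214-3p to miR-3120 by 0.37.

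The arm ratio of miR-199a changed less than the ratio between the hairpins. The 3p arm had 3.57, 3.47 and 3.24 times the counts of the 5p arm in EV and 3.38, 2.48 and 2.56 times in Intracellular libraries. The groups overlapped through Intracellular replicate 1. The mean log2 ratio was 1.78 ± 0.07 in vesicles and 1.47 ± 0.25 in cells (SD, n = 3; exact permutation p = 0.2). In a limma fit over the 33 precursors with both arms at a mean of at least 50 CPM, the difference was 0.30 (SE 0.361, 95% interval -0.41 to 1.01, limma adjusted p = 0.478). The fit gave nearly all precursors the same spread, so this interval is wider than the spread of miR-199a itself.

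Arm ratios moved often in these data. Of the 33 precursors, 57.6% were called and 66.7% had groups without overlap, and 27 moved farther than miR-199a. The median size of the difference was 0.89. The 4 with the largest difference were miR-148a (2.92), miR-423 (-2.76), miR-455 (-2.73) and miR-152 (2.51), each with a limma adjusted p of 1.29e-09 or less. With a minimum of 10 CPM their limma adjusted p was 0.00406 to 0.00629, and with a replicate block 0.00146 to 0.00602. The rarer arm of miR-455 (3p) had 28 counts in EV and that of miR-152 (5p) 32. The arm ratio of miR-214 could not be fitted, as its 5p row was far under the minimum of 50 CPM.

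**Figure D4:**
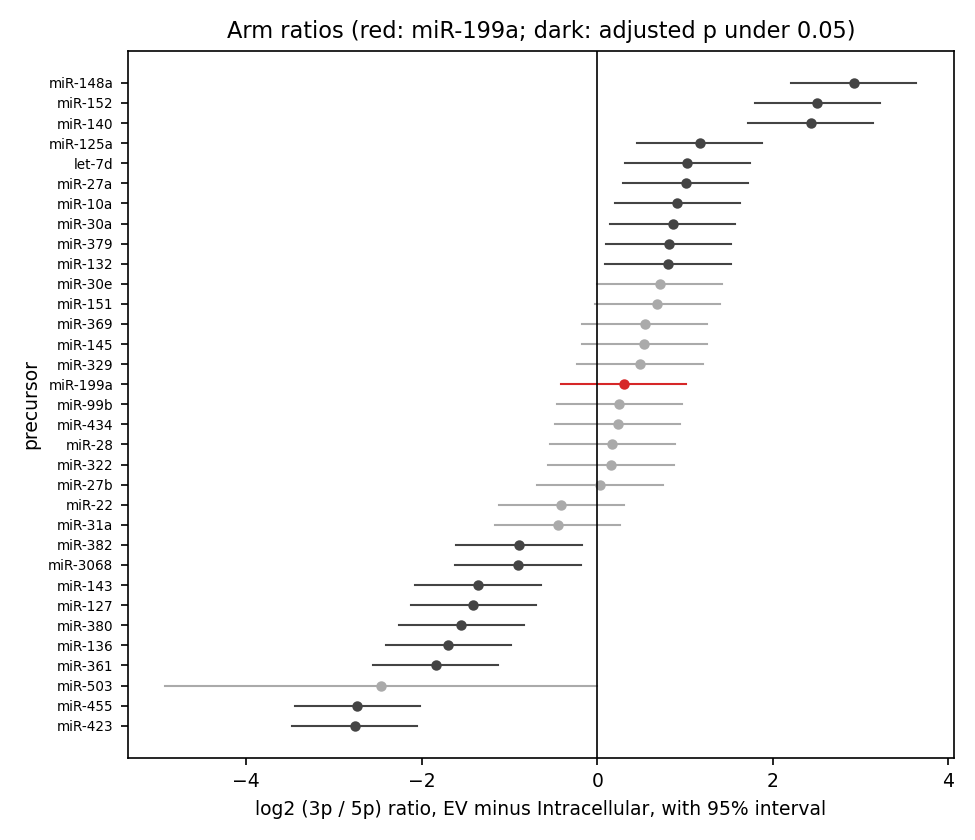
Difference in the log2 ratio of 3p to 5p counts, EV minus Intracellular, for 33 precursors, with limma's 95% interval; dark points have an adjusted p under 0.05 and miR-199a is red. miR-199a (0.30) lies among the smaller differences, and the precursors range from -2.76 to 2.92.

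The row named miR-3120, whose strand of origin is not known here, was higher in EV as miR-214-3p was. It stood at 221.6, 180 and 75.8 CPM in the vesicle libraries and at 23.9, 53.7 and 53.2 CPM in those from cells. The groups did not overlap, but EV replicate 3 lay near the Intracellular libraries with only 7 counts, and the EV libraries held 44 in all. The log2 fold change was 1.25 (SE 0.336, edgeR adjusted p = 0.00651) with TMM and 1.85 with total-count scaling. It was 0.96 without EV replicate 1, where the call was lost (edgeR adjusted p = 0.0809, or 0.0663 with the tested rows kept). Without EV replicate 2 it was 1.08 (adjusted p = 0.04), and with the tested rows kept the call was lost there too (1.12, adjusted p = 0.0547).

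The ratio of miR-214-3p to miR-3120 was 6.11, 6.32 and 10.6 in EV and 6.05, 5.40 and 5.85 in Intracellular libraries. The first 2 EV libraries lay just above the Intracellular ones and EV replicate 3, with its 7 counts of miR-3120, lay apart. The difference of 0.37 on the log2 scale fell to 0.11 without that library (exact permutation p = 0.1 with and 0.2 without it, each the smallest its libraries allow). The ratio of miR-199a to miR-3120 differed by -1.98 (exact permutation p = 0.1). Compared with miR-214-3p itself, the Intracellular level of miR-3120 was 43.6 ± 17.0 against 248.6 ± 90.6 CPM (SD, n = 3), and that of the miR-214-5p row was 2.82 ± 0.575 CPM.

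The shift between miR-199a and miR-214 was set beside 9 other pairs of miRNAs from a shared cluster, as a description. In the pairs miR-23a-3p to miR-24-3p and miR-29a-3p to miR-29b-3p, the second miRNA is also made from another cluster. Counts of a mature sequence do not tell its loci apart, so these pairs are not strictly between neighbours. The log2 ratio of miR-199a-3p to miR-214-3p (0.5 added to each count) moved by -2.28, and 0 of the 9 pairs moved as far, also with any 1 library left out. For miR-195-5p to miR-497-5p the rarer miRNA had 0 EV counts, so its value was set by the 0.5 added and is not read. Of the other 8, the nearest were miR-127-3p to miR-434-3p of the imprinted Dlk1-Dio3 region (-1.64), miR-532-5p to miR-362-5p (-1.50, with 9 EV counts of the rarer miRNA) and miR-23a-3p to miR-24-3p (1.15). The groups of these 3 pairs did not overlap, and those of the other 5 did. The median size over the 8 was 0.45. miR-143-3p to miR-145-5p, the other abundant mesenchymal pair, moved by -0.29, and its groups overlapped.

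**Figure D5:**
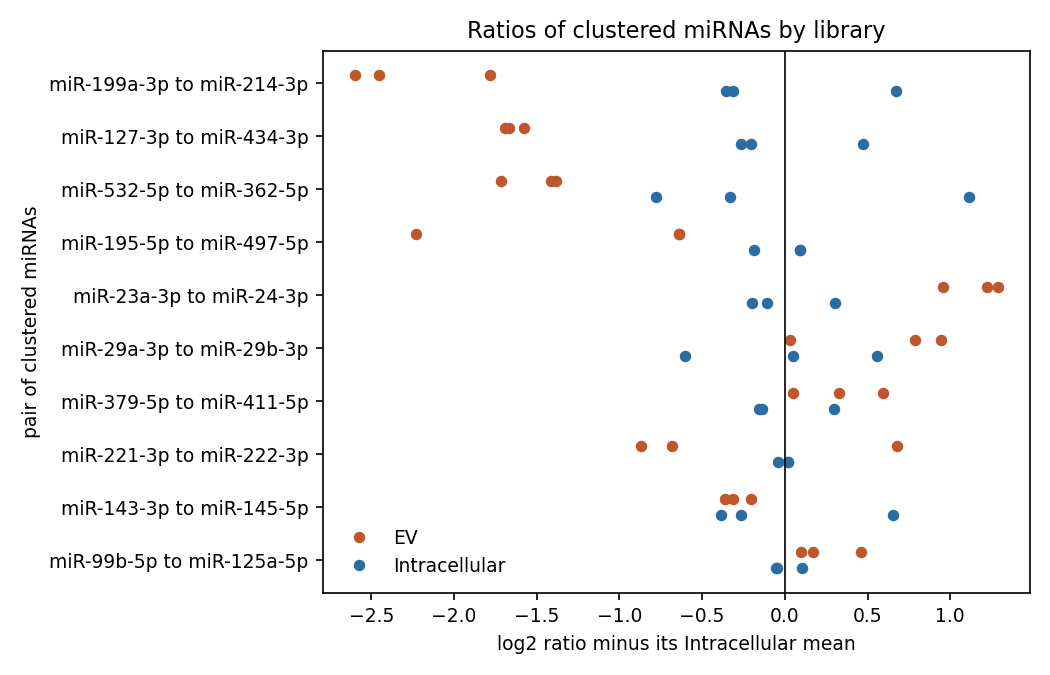
Log2 ratio of 2 clustered miRNAs in each library minus the Intracellular mean of that ratio, for miR-199a-3p to miR-214-3p and 9 other pairs ordered by size of the difference. The EV points of miR-199a-3p to miR-214-3p have the lowest mean (-2.28), the points of miR-195-5p to miR-497-5p rest on too few EV counts to be read, and those of miR-143-3p to miR-145-5p lie among the Intracellular points.

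The members also differed in which miRNAs had the most similar profile. Likeness was the root mean square difference of log2(CPM + 10), centred per miRNA, over the 6 libraries, among 170 other miRNAs with a mean of at least 100 CPM. Closest to miR-214-3p was miR-1839-5p (0.103), at 1588, 1487 and 1126 CPM in vesicles and 205.5, 424.1 and 397.9 CPM in cells, with Intracellular replicate 1 again the lowest. It was followed by miR-484 (0.206), from 53 EV counts, and by miR-152-3p (0.206). Their log2 fold changes with TMM were 1.43, 1.48 and 1.51, near that of miR-214-3p as the choice by likeness over the same libraries entails. miR-199a-3p and miR-199a-5p were at places 132 and 149 in that order.

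Closest to miR-199a-3p were miR-148b-3p (0.0844), miR-143-3p (0.114) and let-7d-5p (0.114), and miR-214-3p was at place 151 of 170. Closest to miR-199a-5p were miR-125b-5p (0.0976), miR-125a-5p (0.136) and miR-26a-5p (0.146). miR-125b-5p was at 11981, 12417 and 14297 CPM in vesicles and 11606, 19019 and 19652 CPM in cells. Like miR-199a-5p, it was lower in Intracellular replicate 1 than in the other two Intracellular libraries. The 2 arms of miR-199a differed from each other by 0.211. No likeness is given for miR-214-5p, with 1 EV count.

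Other miRNAs with a known part in fibroblast activation and fibrosis were called in both directions with TMM scaling and in one with total counts. Of 20 on the list, 17 were tested. With TMM 5 were higher and 6 lower (25.6% and 17.1% over all rows, 20.7% and 19.3% over known miRNAs). With total counts 7 were higher and 0 lower (32.6% and 0.915% over all rows). Their median log2 fold change was 0.20 with TMM and 0.77 with total counts, beside -0.06 and 0.55 over all tested miRNAs. Of its 4 most abundant members, miR-21-5p, which rises in activated fibroblasts, was at 129126 ± 5937 CPM in vesicles and 152971 ± 11468 CPM in cells (SD, n = 3), a log2 fold change of -0.97 with TMM (edgeR adjusted p = 0.0319) and -0.24 with total counts (0.0505). miR-26a-5p was at -0.75 and miR-27b-3p at -0.68 with TMM, both lower calls that were not made with total counts (-0.12 and -0.039). The lower calls of miR-21-5p, miR-26a-5p and miR-27b-3p were lost in 13, 11 and 14 of the 24 alternatives, among them the replicate block (adjusted p = 0.128, 0.0666 and 0.099) and leaving out EV replicate 1 (0.127, 0.0904 and 0.109), EV replicate 2 (0.0866, 0.105 and 0.147) or Intracellular replicate 3 (0.0622, 0.125 and 0.151). Leaving out EV replicate 3 ended that of miR-21-5p (0.0594), and leaving out Intracellular replicate 2 those of miR-26a-5p and miR-27b-3p (0.0825 and 0.157). With the tested rows kept, the miR-26a-5p call held without Intracellular replicate 2 (edgeR adjusted p = 0.0273). miR-24-3p was not called (0.20 with TMM and -0.044 with upper-quartile scaling).

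Of the 11 fibroblast markers, 10 were tested. With TMM 2 were higher and 5 lower (25.6% and 17.1% over all rows, 20.7% and 19.3% over known miRNAs). With total counts 3 were higher and 0 lower (32.6% and 0.915% over all rows). The median log2 fold changes were -0.56 with TMM and 0.08 with total counts. miR-21-5p, miR-27b-3p and miR-24-3p stand on both lists. miR-152-3p was called higher under both scalings (1.51 and 2.15). miR-143-3p was at -0.88 with TMM (edgeR adjusted p = 0.0541) and -0.15 with total counts, and it was called lower in 7 of 24 alternatives, among them DESeq2 (adjusted p = 0.0106), upper-quartile scaling (0.00509) and leaving out Intracellular replicate 1 (-0.44, adjusted p = 0.000173).

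The members also differ in base composition. miR-214-3p has 61.9% G and C, miR-3120 52.4%, miR-199a-5p 52.2%, miR-214-5p 41.2% and miR-199a-3p 40.9%. The groups below were cut at the members' own values and count their calls. Of the 29 known miRNAs tested with at least the G and C content of miR-214-3p, itself included, 13 were called higher and 1 lower with TMM (median log2 fold change 0.59). Of the 148 from miR-199a-3p to miR-199a-5p, both included and miR-3120 just outside, 21 were called higher and 35 lower (median -0.34). Over all 290 known miRNAs tested, 20.7% were called higher and 19.3% lower. The part of base composition in the difference between the members was not tested. The motifs GGAG and GGCU, both reported as marks of miRNAs exported in vesicles, were searched on the mature strand alone and occurred in 7.97% and 11.1% of the 552 known miRNAs and in 0 of the 4 members.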

How the data were processed

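Small RNA was sequenced from 3 EV and 3 Intracellular samples, and table columns were assigned to samples through the group and number in their names. Per the labels' protocols, adapters were ligated to both ends and PCR products were size-selected on a gel; ligation and PCR favour some sequences. Per the submitters' processing notes, cutadapt and build Rnor_6.0 were used; the aligner, the miRNA database and the handling of reads shared between sequences are unstated in the sources used here. One deposited table gives raw counts, all whole numbers, for each mature miRNA. The TPM table deposited by the authors equals these counts per 1000000 counts of the library and does not use length.

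Counts were tested with edgeR 4.0.16 (R 4.3.3): filterByExpr (minimum count 10, minimum total 15), library sizes from the tested rows, TMM scaling, robust dispersions, 2-sided, no replicate block, adjusted p under 0.05 over all 328 rows. Rows past it are the calls. Standard errors were derived from the F statistic. Arm ratios (0.5 added to each count) were fitted with limma 3.58.1 (robust eBayes). Single values were compared by exact permutation tests (scipy 1.17.1). DESeq2 1.42.0 was an alternative. The scripts were tested on simulated data. No 2 libraries of a group agreed within sampling noise (lowest chi-square over its degrees of freedom 4.33). In this experiment 1 count was 9.47 to 12.3 CPM in EV and 0.113 to 0.544 CPM in Intracellular libraries.

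The members, lists, pairs and the rule for named miRNAs were chosen with earlier results of these data known. Named were the members, rows sharing a seed, the 3 closest miRNAs per member, up to 4 abundant non-members of the fibrosis and fibroblast lists and the 4 precursors whose arm ratio moved most. RefSeq sequences are of build GRCr8, whose coordinates are not printed because the deposited tables use another build. The neuronal, glial, muscle and endothelial marker lists summed to 2197 to 2599, 21.7 to 85.2, 49.3 to 151.5 and 259.9 to 435.7 CPM in EV and to 1580 to 3279, 8.70 to 22.2, 9.06 to 12.6 and 141.4 to 390.3 CPM in Intracellular libraries.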

Additional observations from a re-analysis of the deposited data

How the results depend on the processing

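The call of miR-214-3p held in all 24 alternatives. For miR-199a-5p it was lost with total-count scaling (-0.39) and with limma on log2(TPM + 1) and log2(TPM + 0.1) (-0.38 in both). For miR-199a-3p it was lost in 16 of 24: with RLE (-0.78, adjusted p 0.0526), total-count scaling (-0.079), limma on log2(TPM + 1) and log2(TPM + 0.1) (-0.083 in both), a stricter filter (-0.66), known miRNAs alone (-0.66), a replicate block (-0.74) and 9 of the 12 fits that left out 1 library, where it ranged from -0.94 to -0.42 (-0.92 to -0.45 with the tested rows kept; among those that lost the call, -0.88 to -0.74). Leaving out 1 library gave -1.25 to -0.86 for miR-199a-5p, 1.36 to 1.75 for miR-214-3p, -2.59 to -2.04 for the ratio of miR-199a to miR-214, 0.22 to 0.44 for the arm ratio of miR-199a and -1.30 to -0.66 percentage points for the share of the cluster. With no filter, miR-214-5p could be tested on 1 EV count and is not reported.

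Over all rows 84 miRNAs were called higher and 56 lower. The higher calls numbered 197 with no filter, which tests more rows. The lower calls numbered 3 with total counts, 92 with upper-quartile scaling, 37 with known miRNAs alone, and 2 and 3 with limma on log2(TPM + 1) and log2(TPM + 0.1); the cause was not tested. With 1 library left out the higher calls ranged from 50 to 69 and the lower calls from 26 to 55, or from 62 to 91 and from 18 to 58 with the tested rows kept, where the counts that moved by over 1.5 times were 18, 26 and 36 lower calls. Precursors called for their arm ratio numbered 19, and 10 with a minimum of 10 CPM, 12 to 17 with 1 library left out. miR-24-3p turned from 0.20 to -0.044 with upper-quartile scaling.

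The labels do not say whether same-numbered libraries are paired. Their deviations from the group means correlated at -0.02, -0.02 and 0.03, and 0 of 6 libraries correlated best with their own number. This cannot decide the question, since 1 count was 9.47 to 12.3 CPM in EV and counting noise could hide a shared origin. Whether it did was not tested. The replicate block gave 87 higher and 46 lower calls. With 3 pairs the exact sign-flip test gave p = 0.25 for the ratio of miR-199a to miR-214, the smallest it allows. The low depth of the EV libraries limits miR-214-5p and miR-3120. Leaving out libraries with the tested rows kept, the ratios with miR-3120 and the addition of miR-3120 to miR-214 were chosen after seeing the data.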
